A study of Mus musculus with 4 samples.

Results

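Ribosomal RNA is made in the nucleolus as one long precursor transcript, which is chemically modified, cut and packed with ribosomal proteins into the small and large subunits. Transcribing the precursor needs RNA polymerase I and its DNA-binding factor Ubtf. Its modification needs small nucleolar ribonucleoproteins (snoRNPs), and its assembly needs abundant nucleolar proteins such as nucleolin and nucleophosmin, many of them targets of the transcription factor Myc. Cells adjust this costly pathway to nutrient supply. Here the row listed for the precursor, Rn45s, and 9 protein-coding genes of the pathway were followed, 10 of the 15835 genes in the count table. The protein-coding genes were Ncl, Npm1, Fbl, Nop56, Nop58, Ubtf, Polr1a, Polr1b and Myc. The members were chosen by gene symbol, and Rn45s was chosen by the lower counts it had in fasted libraries of these same data, so its values are a description and carry no test. All 10 genes had a row, and 9 of them passed the filter on low counts.

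The cells were ILC2, the innate lymphocytes of group 2 that reside in tissues and are known for type 2 cytokines, and were taken with their RNA from Langerhans islets of C57BL/6j mice. Fasted mice gave 4 libraries and fed mice gave 4, named here by the numbers 1, 3, 4 and 5 in the column names, where control was read as fed. The labels give neither the length of the fast nor the age of the mice and do not tie libraries to individual mice. P-values therefore reflect only how far these libraries spread, and that spread may be technical. Libraries were made with CEL-seq2, a barcoded method that primes on the polyA tail and reads the 3′ end, so levels are compared within a gene across libraries and not between genes. The rRNA precursor is not a normal polyadenylated transcript, and how Rn45s counts entered these libraries was not tested. Whether they came from the precursor or from the rRNA cut from it was not tested either.

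Library totals ran from 2041697 to 9366807 counts in fasted and from 1797504 to 25252366 in fed libraries. All 17 listed ILC2 markers had a row, and 16 were tested, 9 with a positive log2 fold change, while Rora had 1 count in fasted and 5 counts in fed libraries. The ILC2 markers had summed levels, as CPM (counts scaled to a common library size, here the library total), of 1594 to 6981 in fasted and 1300 to 4464 in fed libraries. The libraries also held much RNA of acinar cells, the enzyme-secreting cells around the islets. The acinar list, with 26 of 27 genes in the table, took 3.03%, 3.38%, 69.2% and 71.0% of the counts in fasted libraries 1, 3, 4 and 5, against 42.7%, 48.8%, 73.9% and 66.1% in fed libraries 1, 3, 4 and 5. The 95% Wilson intervals of these shares reach at most 0.0723 percentage points to either side and cover counting error only. Fasted libraries 1 and 3, called acinar-poor here, stood apart from the other 6, and results are also given after leaving them out. Islet endocrine markers, with 7 of 10 in the table, summed to 6.86 to 51.0 CPM in fasted and 40.3 to 90.1 CPM in fed libraries, and Iapp was at 0 counts in fasted and Pyy and Chga in fed libraries. B cell markers, with 4 of 5 in the table, summed to 4.34 to 7.35 CPM in fasted and 0.854 to 3.34 CPM in fed libraries without overlap. T cell markers, with 8 of 9 in the table, summed to 45.4 to 170 CPM in fasted and 22.1 to 55.6 CPM in fed libraries. All 3 T cell markers tested had positive log2 fold changes over scaled library sizes, Cd3g at 0.51, Cd3e at 1.86 and Lef1 at 1.16, with no overlap for Cd3g, while Cd8a and Cd5 had 0 counts in fasted and 11 and 3 counts in fed libraries. Mitochondrial genes took 1.33% to 4.56% of counts in fasted and 1.44% to 6.64% in fed libraries. The part of these other cells and of depth in the differences given here was not tested, and in bulk RNA fewer cells of a type and less RNA per cell cannot be told apart.

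Rn45s stood at a lower level in every fasted ILC2 library once library sizes were scaled. Rn45s had 4279, 2402, 7089 and 2713 counts in fasted libraries 1, 3, 4 and 5, and 4933, 25085, 20652 and 7898 counts in fed libraries 1, 3, 4 and 5. Over library sizes scaled by TMM, which sets the bulk of genes level between libraries, these were 1001, 469, 1307 and 514 CPM in fasted libraries and 2201, 3394, 1526 and 2705 CPM in fed libraries. Every fasted library lay below every fed library on this scale, with fasted library 4 and fed library 4 the closest across the groups. The means were 823 ± 403 CPM in fasted and 2457 ± 790 CPM in fed libraries (SD, n = 4 each), a log2 fold change, fasted minus fed, of -1.58 ± 0.37 (SE). Rn45s is listed on chromosome 17 in the table, although the rRNA genes are repeated in tandem arrays on several mouse chromosomes, so how reads from the copies were assigned could change its counts.

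**Figure D1:**
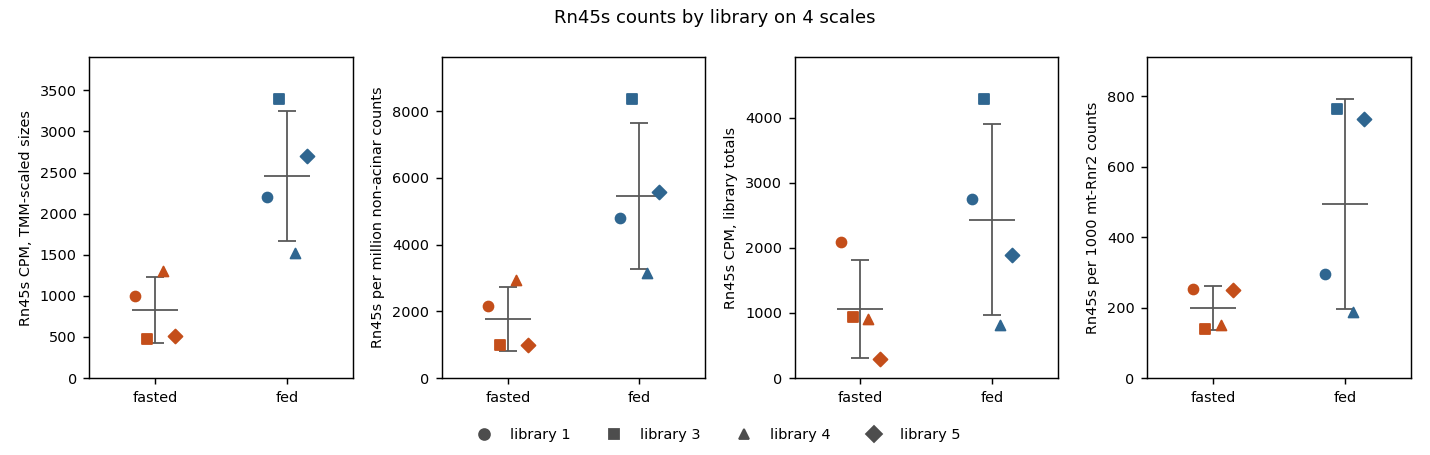
Rn45s by library in fasted (orange, left) and fed (blue, right) libraries on 4 scales, with the marker shape giving the library number and bars the mean ± SD (n = 4 each). The groups do not overlap on the TMM scale or as CPM of non-acinar counts, and overlap on library totals and per 1000 mt-Rnr2 counts.

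The separation of the groups depended on what Rn45s was counted against. As CPM of the counts outside the acinar list, Rn45s stood at 2161, 976, 2938 and 998 in fasted libraries 1, 3, 4 and 5 and at 4791, 8367, 3136 and 5566 in fed libraries, again with no overlap. As CPM of all counts it stood at 2096, 943, 904 and 289.6 in fasted libraries and at 2744, 4284, 818 and 1884 in fed libraries, and the groups overlapped through fasted library 1 and fed library 4. On library totals the log2 fold change was -1.20, and that scaling also placed the median of all tested genes at 0.51, so that relative to the median it was -1.70. The larger mitochondrial rRNA, mt-Rnr2, is transcribed in mitochondria and not in the nucleolus. Per 1000 mt-Rnr2 counts Rn45s stood at 253, 138, 151 and 249 in fasted libraries 1, 3, 4 and 5 and at 294, 762, 186 and 735 in fed libraries, where fed library 4 lay inside the fasted range. Per 1000 counts of the other mitochondrial rRNA, mt-Rnr1, the fasted values of 281, 106, 326 and 539 again overlapped the fed values of 478, 1016, 142 and 888.

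Between libraries of the same number the Rn45s difference varied widely. On the TMM scale its log2 ratio, fasted over fed, was -1.14, -2.86, -0.22 and -2.40 for numbers 1, 3, 4 and 5. The size was small in the pair numbered 4. Since the groups did not overlap on this scale, any pairing gives the same direction. With fasted libraries 1 and 3 left out the log2 fold change was -1.43 ± 0.50, and with the acinar level as a covariate it was -1.49 ± 0.44. Fasted library 3, with 3.38% acinar counts, and fasted library 5, with 71.0%, had the lowest Rn45s of the 8 libraries on the TMM scale. No fed library had less than 42.7% acinar counts, so the groups cannot be compared at low acinar shares. The part of acinar RNA in the Rn45s values was not tested.

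**Figure D2:**
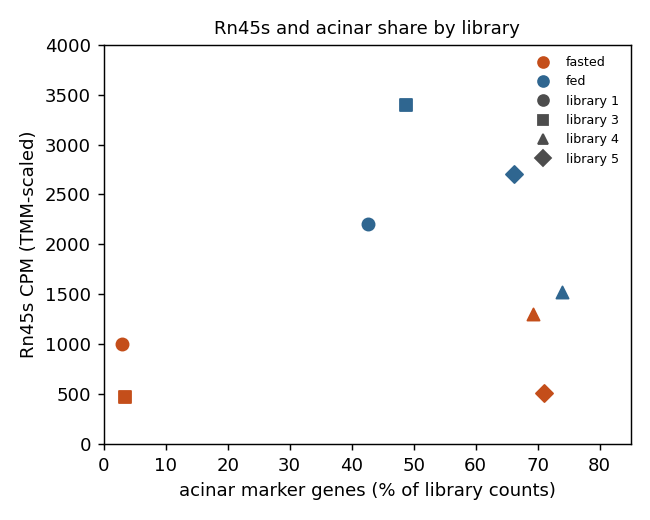
Rn45s level (CPM over TMM-scaled library sizes, vertical axis) against the share of counts from acinar marker genes (horizontal axis, %) in fasted (orange) and fed (blue) libraries, with the marker shape giving the library number. Fasted libraries 3 and 5, at 3.38% and 71.0% acinar counts, stand at 469 and 514 CPM, and the pair numbered 4 lies close together. No fed library lies below 42.7% acinar counts.

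The genes whose pattern over the 8 libraries was most like that of Rn45s, by Pearson's r of log2 CPM among the tested genes, included Vipas39 (r = 0.93), Csf2 (0.92), Tnf (0.92) and 1600012H06Rik (0.91). For Nop56 they were Slc39a9 (0.95), Camkk2 (0.95), Eef1e1 (0.94), Nfe2l1 (0.94) and Cdadc1 (0.94). These are the highest of many correlations over few libraries that share their groups, depth and acinar share, and they are a description. Csf2, the gene of the cytokine GM-CSF, averaged 29.9 ± 6.92 CPM in fasted and 49.2 ± 7.12 CPM in fed libraries. Its groups did not overlap, lower in fasted libraries, as for 1.31% of all tested genes. It was not called (edgeR quasi-likelihood test with Benjamini-Hochberg adjustment over all tested genes, adjusted p = 0.98). Csf2 was named for its likeness to Rn45s, which was chosen for its lower fasted counts, so this pattern is no separate result.

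Of 22 other small and structural RNAs listed, 8 had a row and 4 passed the filter, the mitochondrial rRNAs among them. The RNA component of RNase MRP, Rmrp, which takes part in cutting the precursor, had 13 counts in fasted and 17 in fed libraries, and that of RNase P, Rpph1, had 2 counts in fasted and 8 in fed libraries. Telomerase RNA, Terc, had 9 counts in fasted libraries and none in fed libraries, and the vault RNA Vaultrc5 had 16 in fasted and 52 in fed libraries. The mitochondrial rRNAs were abundant. For mt-Rnr1 the means were 3242 ± 1568 CPM in fasted and 5438 ± 3614 CPM in fed libraries, a log2 fold change of -0.75 ± 0.52 (edgeR quasi-likelihood test with Benjamini-Hochberg adjustment over all 7700 tested genes, adjusted p = 1.00). For mt-Rnr2 they were 4517 ± 2867 CPM in fasted and 5957 ± 2225 CPM in fed libraries, with -0.40 ± 0.43 (edgeR adjusted p = 1.00). Both overlapped between groups. On library totals they were at 0.15 and 0.03, or -0.36 and -0.48 relative to the median of all genes there. The minor spliceosome RNAs Rnu11 and Rnu12 had log2 fold changes of 0.12 ± 0.82 and -0.87 ± 0.72, neither of them called.

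None of the protein-coding members passed the test between the groups across all genes. With edgeR, 0 of the 8 that passed the filter had an adjusted p under 0.05, as for all genes: percent called was 0 in either direction. At an unadjusted p under 0.05 there were also 0 of the 8, against 2.77% higher and 1.62% lower among all genes tested. Their log2 fold changes were positive for 6 and negative for 2, with a median of 0.16, against 3835 positive and 3865 negative and a median of -0.00 over all tested genes. The fasted and fed libraries did not overlap for 2 members, Rn45s and Nop56, both lower in fasted libraries, where 1.31% of all genes were lower and 2.21% higher without overlap. Since Rn45s was chosen for this pattern, the only such gene among the others was Nop56.

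**Figure D3:**
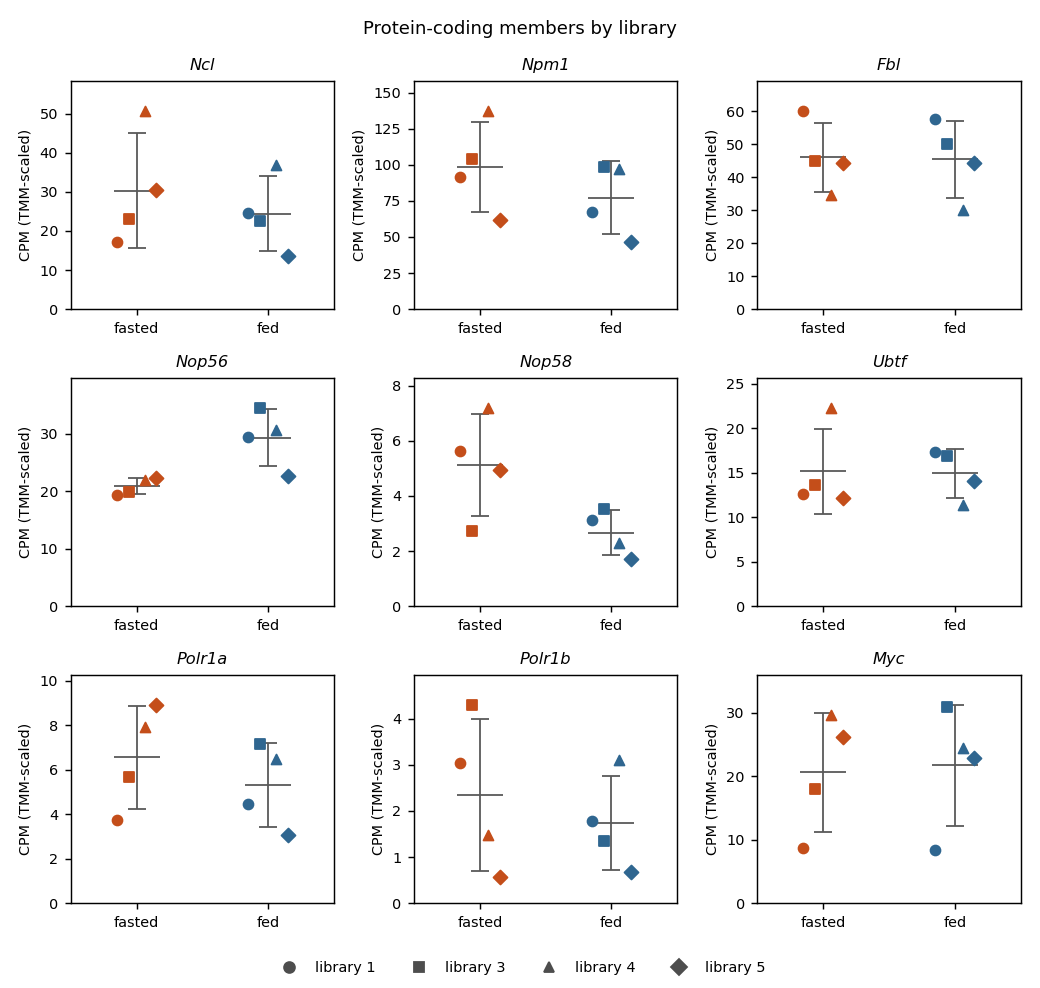
Levels of the 9 protein-coding members (CPM over TMM-scaled library sizes) in fasted (orange, left) and fed (blue, right) libraries, with the marker shape giving the library number and bars the mean ± SD (n = 4 each). Only the Nop56 groups do not overlap, by a narrow gap between fasted library 5 and fed library 5.

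Fbl, Nop56 and Nop58 belong to the core of box C/D snoRNPs, the particles that place methyl groups on the precursor, and they did not share a direction. Nop56, a scaffold protein of the particle on chromosome 2 (130274430 to 130279313 in mm10), stood at 19.4, 19.9, 21.9 and 22.4 CPM in fasted libraries 1, 3, 4 and 5 and at 29.4, 34.5, 30.6 and 22.6 CPM in fed libraries. The fasted values were tightly grouped and lay below all fed values, although fed library 5 was only just above them. The means were 20.9 ± 1.46 CPM in fasted and 29.3 ± 4.95 CPM in fed libraries. The log2 fold change was -0.49 ± 0.24 (edgeR adjusted p = 1.00), so Nop56 was not called. It was -0.41 ± 0.35 without fasted libraries 1 and 3 and -0.05 on library totals, or -0.56 relative to the median of all genes there. As CPM of non-acinar counts the groups overlapped. Within the same numbers the log2 ratio was -0.60, -0.79, -0.48 and -0.02 for numbers 1, 3, 4 and 5.

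Nop58, the partner scaffold of Nop56 in the same particle, lay on the other side. On chromosome 1 (59684971 to 59719044 in mm10), it stood at 5.61, 2.73, 7.19 and 4.93 CPM in fasted libraries 1, 3, 4 and 5 and at 3.12, 3.52, 2.29 and 1.71 CPM in fed libraries. Fasted library 3 lay within the fed range and the other 3 fasted libraries above it. The means were 5.12 ± 1.85 CPM in fasted and 2.66 ± 0.81 CPM in fed libraries, a log2 fold change of 0.93 ± 0.50 (edgeR adjusted p = 1.00), and it was not called. These levels rest on few counts, 24, 14, 39 and 26 in fasted and 7, 26, 31 and 5 in fed libraries. Without fasted libraries 1 and 3 the log2 fold change was 1.18 ± 0.64.

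Fbl, fibrillarin, the methyltransferase of the particle, did not separate the groups. It stood at 60.1, 44.9, 34.7 and 44.4 CPM in fasted and at 57.5, 50.1, 29.9 and 44.2 CPM in fed libraries 1, 3, 4 and 5. Libraries of the same number had similar Fbl levels in both groups. The means were 46.0 ± 10.5 CPM in fasted and 45.4 ± 11.7 CPM in fed libraries, a log2 fold change of 0.02 ± 0.27 (edgeR adjusted p = 1.00), which became -0.20 ± 0.36 without fasted libraries 1 and 3.

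The ratio of these scaffold genes was also taken within each library, where scaling cancels. For every 100 Nop56 counts there were 28.9, 13.7, 32.8 and 22.0 Nop58 counts in fasted libraries 1, 3, 4 and 5, and 10.6, 10.2, 7.49 and 7.58 in fed libraries 1, 3, 4 and 5. Every fasted ratio was above every fed ratio. This ratio was picked after the values had been seen and has no test. Of the 28 pairs among the 8 tested protein-coding members it was the only 1 whose groups did not overlap. Among all pairs of tested genes 3.43% did not overlap in either direction. The share among members lies near this background and is no result about them. The ratios of fed libraries 1 and 5 rest on 7 and 5 Nop58 counts. With Rn45s included, 5 of 36 pairs did not overlap, the other 4 being Rn45s with Npm1, Ubtf, Fbl and Nop58. Rn45s was chosen for its lower fasted counts, so these 4 pairs reflect that choice and are no result about the members. Rn45s per Nop56 count overlapped, at 51.6, 23.5, 59.6 and 23.0 in fasted and 74.7, 98.4, 49.9 and 120 in fed libraries.

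The 250 bases before the RefSeq start of Nop56 and of Nop58 are shown because these partner genes lay on opposite sides, on GRCm38.p6, plus strand, at chr2:130274162-130274411 and chr1:59684756-59685005. Capitals mark CCAAT or TATAA on either strand (ATTGG or TTATA on the other), each found by its letters alone.
Nop56: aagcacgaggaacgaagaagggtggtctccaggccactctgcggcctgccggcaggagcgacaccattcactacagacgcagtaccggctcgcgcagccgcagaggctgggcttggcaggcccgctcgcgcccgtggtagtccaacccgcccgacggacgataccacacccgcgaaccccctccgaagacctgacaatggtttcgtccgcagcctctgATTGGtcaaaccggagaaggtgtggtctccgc
Nop58: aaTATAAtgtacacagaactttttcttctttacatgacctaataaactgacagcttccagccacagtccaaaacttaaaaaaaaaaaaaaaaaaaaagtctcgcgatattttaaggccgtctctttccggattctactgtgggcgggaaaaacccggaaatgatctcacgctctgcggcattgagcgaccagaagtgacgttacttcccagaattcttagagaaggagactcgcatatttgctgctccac
The Nop56 window holds 1 CCAAT box letter match, on the minus strand, that begins 32 bases before the start, and the Nop58 window holds none. The Nop58 window holds TATAA once, 248 bases before the start, and the Nop56 window holds none. The GENCODE start of Nop58, 59684971, lies inside its window, so the last bases printed fall within the GENCODE gene. Neither window holds CACGTG, the letters bound by Myc with Max. Of 32851 RefSeq windows of this length, 33.8% hold CCAAT, 22.8% hold TATAA and 6.02% hold CACGTG on either strand, and 6 of the 10 members had a window.

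The genes of the abundant nucleolar proteins did not separate the groups. Ncl, nucleolin, which binds the nascent precursor, stood at 17.1, 23.0, 50.7 and 30.3 CPM in fasted and 24.5, 22.5, 36.95 and 13.7 CPM in fed libraries 1, 3, 4 and 5. The highest value of each group was in library 4. The means were 30.3 ± 14.6 CPM in fasted and 24.4 ± 9.59 CPM in fed libraries, a log2 fold change of 0.30 ± 0.39 (edgeR adjusted p = 1.00). The acinar-poor fasted libraries had the lowest fasted Ncl levels, and leaving them out gave 0.73 ± 0.41. The log2 fold change was -0.08 without fasted library 4. Npm1, nucleophosmin, a chaperone of the granular part of the nucleolus, stood at 91.5, 104, 137 and 62.0 CPM in fasted and 67.4, 98.1, 97.2 and 46.2 CPM in fed libraries. It was higher in the fasted library of all 4 same-number pairs, a pattern given without its share over all genes, while the groups overlapped. The means were 98.7 ± 31.2 CPM in fasted and 77.2 ± 25.1 CPM in fed libraries, a log2 fold change of 0.35 ± 0.31 (edgeR adjusted p = 1.00). Npm1 has processed pseudogenes in the mouse genome, and the labels do not say how reads shared with them were counted.

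The machinery that transcribes the precursor did not separate the groups either. Ubtf, which opens the rRNA genes for RNA polymerase I, stood at 12.6, 13.7, 22.3 and 12.1 CPM in fasted and 17.4, 16.9, 11.4 and 14.0 CPM in fed libraries 1, 3, 4 and 5. Fasted library 4 was the highest of all 8, and the other fasted libraries lay within the fed range. The log2 fold change was 0.03 ± 0.31 (edgeR adjusted p = 1.00), with means of 15.2 ± 4.79 CPM in fasted and 14.9 ± 2.79 CPM in fed libraries, and -0.22 without fasted library 4. Polr1a, the largest subunit of RNA polymerase I, stood at 3.74, 5.66, 7.93 and 8.91 CPM in fasted and 4.46, 7.17, 6.50 and 3.08 CPM in fed libraries. The means were 6.56 ± 2.32 CPM in fasted and 5.30 ± 1.88 CPM in fed libraries, a log2 fold change of 0.28 ± 0.45 (edgeR adjusted p = 1.00), or 0.64 ± 0.54 without fasted libraries 1 and 3. Polr1b, the second-largest subunit, did not pass the filter on low counts, with 13, 22, 8 and 3 counts in fasted and 4, 10, 42 and 2 counts in fed libraries. Its CPM overlapped, and it was not tested.

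Myc, the transcription factor that drives many genes of ribosome biogenesis, stood at 8.66, 18.0, 29.7 and 26.2 CPM in fasted and 8.48, 31.0, 24.5 and 22.9 CPM in fed libraries 1, 3, 4 and 5. Library 1 was lowest in both groups. The means were 20.6 ± 9.36 CPM in fasted and 21.7 ± 9.50 CPM in fed libraries, a log2 fold change of -0.09 ± 0.44 (edgeR adjusted p = 1.00). It was 0.34 ± 0.46 with the acinar-poor fasted libraries left out, and 0.18 on library totals, or -0.33 relative to the median of all genes there.

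Across members, single libraries took the extremes. Fasted library 4 had the highest fasted level for 6 of the 10 members and fasted library 1 the lowest for 4. Among fed libraries, number 3 was highest for 6 members and number 5 lowest for 6. These counts include Rn45s and the untested Polr1b. They are given without a share over all tested genes and are no result about the members. Fed library 5, with the lowest fed Ncl, Npm1, Nop56, Nop58, Polr1a and Polr1b, had the second-highest fed Rn45s.

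The wider pathway was split between the directions. Lists of 178 protein-coding genes for ribosome biogenesis, the members among them, had 139 tested, of which 67 had a positive and 72 a negative log2 fold change, with a median of -0.02 against -0.00 for all genes. On library totals these medians were 0.50 and 0.51. With edgeR, 0 were called in either direction, 3 higher and 3 lower had an unadjusted p under 0.05, against 2.77% and 1.62% of all genes tested, and 2 higher and 2 lower had groups that did not overlap, against 2.21% and 1.31%. These shares lie near the background and are no result about the lists. Of 15 RNA polymerase I subunits and initiation factors, 10 were tested, 7 positive and 3 negative, with a median of 0.12. The abundant subunits Polr1d, shared with RNA polymerase III, and Polr1c, likewise shared, had log2 fold changes of 0.30 ± 0.23 and 0.32 ± 0.33. The subunit Polr1h, listed as Znrd1, had 0.27 ± 0.24. Polr1e, named here after its values were seen, averaged 6.87 ± 1.20 CPM in fasted and 13.0 ± 5.43 CPM in fed libraries, -0.90 ± 0.39, with overlap and no call.

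**Figure D4:**
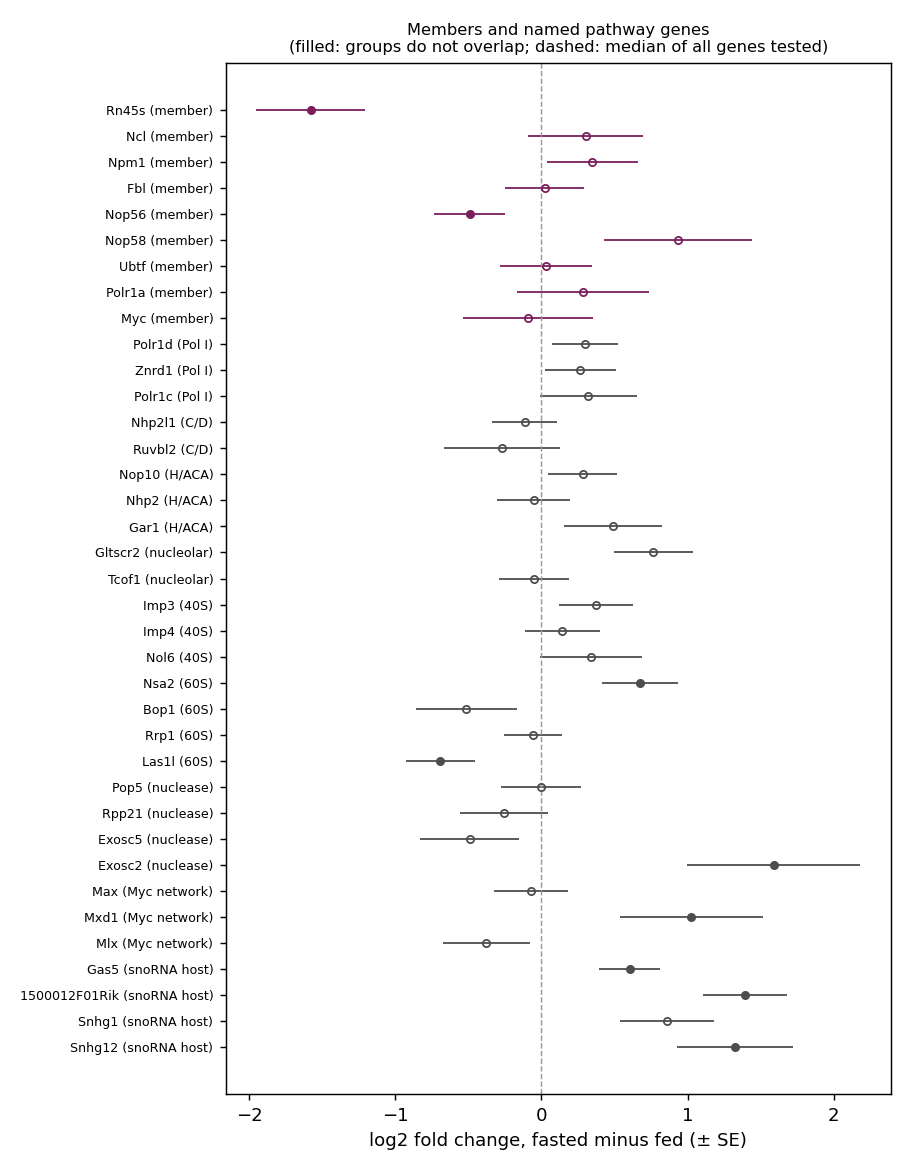
Log2 fold change, fasted minus fed, ± SE of the tested members (purple) and named pathway genes (grey, list in brackets), with filled points where the fasted and fed libraries do not overlap and a dashed line at the median of all tested genes, -0.00. Among the genes shown, Rn45s at -1.58 is the lowest, and Exosc2 at 1.59 and Zfas1, listed as 1500012F01Rik, at 1.39 are the highest. The large-subunit factor Ddx31, not shown and named after its values were seen, was lower, at -1.99 ± 0.69, with overlap and no call. Rn45s was chosen for its difference. Of the filled grey points, Las1l, Exosc2 and Snhg12 were named only because their groups do not overlap. The others were also named for their mean level.

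The other snoRNP and scaffold lists were small. The box C/D list had 8 of 9 genes tested, 4 positive and 4 negative, with a median of -0.05. It includes Snu13, listed as Nhp2l1, which binds the snoRNA directly, at -0.11 ± 0.22, and the assembly helicase Ruvbl2 at -0.27 ± 0.40. The box H/ACA list, for the particles that make pseudouridine, had 3 of 6 tested, Nop10 at 0.28 ± 0.23, Gar1 at 0.49 ± 0.33 and Nhp2 at -0.05 ± 0.25. Its catalytic subunit gene Dkc1 did not pass the filter. Among 8 tested nucleolar scaffold and transcription-linked genes, 5 were positive and 3 negative, with a median of 0.20. Nop53, listed as Gltscr2 and a nucleolar protein of large subunit maturation, averaged 413 ± 108 CPM in fasted and 243 ± 66.3 CPM in fed libraries, 0.77 ± 0.27 (edgeR adjusted p = 1.00), and 0.49 ± 0.35 without fasted libraries 1 and 3. The treacle gene Tcof1, which works with Ubtf at the rRNA genes, stood at -0.05 ± 0.24.

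Subunit assembly factors divided about evenly. Of 53 listed factors of the small subunit, 43 were tested, 21 positive and 22 negative, with a median of -0.02, and the most abundant, Imp3, Imp4 and Nol6, had log2 fold changes of 0.37 ± 0.25, 0.14 ± 0.26 and 0.34 ± 0.35. Of 59 listed factors of the large subunit, 47 were tested, 21 positive and 26 negative, with a median of -0.04. A pair of them had groups that did not overlap, 1 higher and 1 lower in fasted libraries, near the background of 2.21% and 1.31%. Nsa2, a factor of nuclear pre-ribosomes, stood at 196, 237, 221 and 203 CPM in fasted and 120.0, 168, 171 and 78.1 CPM in fed libraries 1, 3, 4 and 5, 0.67 ± 0.26 (edgeR adjusted p = 1.00). Las1l, part of the nuclease complex that cuts the internal spacer between the large-subunit rRNAs, stood at 15.7, 22.1, 20.8 and 20.1 CPM in fasted and 29.9, 33.2, 29.7 and 34.3 CPM in fed libraries. All fasted Las1l values lay well below all fed values. The log2 fold change was -0.69 ± 0.24 (edgeR adjusted p = 0.99), and -0.63 ± 0.33 without fasted libraries 1 and 3. Bop1 and Rrp1, the other abundant genes of the list, had -0.51 ± 0.35 and -0.06 ± 0.20.

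Of 27 listed nucleases and exosome subunits that trim the precursor, 20 were tested, 7 positive and 13 negative, with a median of -0.10. Exosc2, a cap subunit of the RNA exosome, stood at 4.44, 3.71, 10.3 and 3.60 CPM in fasted and 2.23, 1.62, 2.59 and 0.685 CPM in fed libraries, without overlap, 1.59 ± 0.59 (edgeR adjusted p = 1.00). Fasted library 4 stands out, and without it the log2 fold change was 1.09. The most abundant genes of the list, Pop5, Rpp21 and Exosc5, had -0.00 ± 0.28, -0.25 ± 0.30 and -0.49 ± 0.34. In the Myc network, 9 of 11 listed genes were tested, 5 positive and 4 negative, with a median of 0.00. Max, the obligate partner of Myc, had -0.07 ± 0.25 and Mlx, a related partner of other factors, -0.38 ± 0.30. Mxd1, which competes with Myc for Max, stood at 83.3, 55.2, 35.8 and 40.2 CPM in fasted and 5.35, 35.6, 33.4 and 29.5 CPM in fed libraries 1, 3, 4 and 5. The groups did not overlap, by a narrow gap between fasted library 4 and fed library 3. Its log2 fold change was 1.03 ± 0.49 (edgeR adjusted p = 1.00), and 0.53 ± 0.56 with the acinar-poor fasted libraries left out, which held its highest levels.

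Most tested host genes of snoRNAs had positive log2 fold changes, and edgeR called none of them. These genes carry snoRNAs, the guides of the modifying particles, in their introns, and their spliced RNAs, many of which hold little coding sequence, are what a polyA method reads. All 12 listed had a row, 3 of them under an older symbol, and 9 were tested, 8 positive and 1 negative, with a median log2 fold change of 0.53 against -0.00 for all genes. It was 0.64 with the acinar-poor fasted libraries left out, and 1.02 on library totals, where all genes had 0.51. With edgeR, 0 were called. An unadjusted p under 0.05 was found for 4, all higher, and for 2.77% higher among all genes tested. The groups did not overlap for 3, all higher, against 2.21% higher among all genes. The list was chosen with earlier results of these data known. The 3 genes under an older symbol were matched after their values had been seen, and Zfas1, 1 of them, is in both counts. The counts are therefore a description and carry no test.

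Zfas1, listed under its older symbol 1500012F01Rik, a noncoding host gene on chromosome 2, stood at 48.0, 55.0, 35.0 and 55.0 CPM in fasted and 12.04, 16.1, 24.1 and 20.6 CPM in fed libraries 1, 3, 4 and 5. Every fasted value lay above every fed value. The means were 48.2 ± 9.42 CPM in fasted and 18.2 ± 5.24 CPM in fed libraries, a log2 fold change of 1.39 ± 0.29 (edgeR adjusted p = 0.50), and 1.30 ± 0.37 without fasted libraries 1 and 3. DESeq2 called Zfas1 (adjusted p = 0.0288) among the 0.156% of genes it called higher, and over the other alternatives its adjusted p lay between 0.21 and 1.00. Snhg12, on chromosome 4, stood at 16.4, 26.3, 16.8 and 22.6 CPM in fasted and 14.7, 7.85, 6.65 and 4.11 CPM in fed libraries 1, 3, 4 and 5, all fasted above all fed. The log2 fold change was 1.32 ± 0.40 (edgeR adjusted p = 0.79), and 1.26 ± 0.51 without fasted libraries 1 and 3. Gas5 stood at 80.2, 88.0, 67.7 and 63.5 CPM in fasted and 54.0, 45.5, 50.5 and 47.3 CPM in fed libraries, again without overlap. The log2 fold change was 0.60 ± 0.21 (edgeR adjusted p = 0.99), and 0.41 ± 0.29 without fasted libraries 1 and 3. Snhg1 averaged 26.3 ± 8.12 CPM in fasted and 14.4 ± 3.46 CPM in fed libraries, 0.86 ± 0.32, with overlap. The other 5 tested hosts overlapped, with Snhg8 at 0.53 ± 0.30, Snhg3 at 0.41 ± 0.49, Snhg15, listed as Gm11974, at 0.31 ± 0.31, Snhg18, listed as 0610007N19Rik, at 0.06 ± 1.08 and Snhg5 at -0.26 ± 0.67. B cell marker sums on library totals, 4.34 to 7.35 CPM in fasted and 0.854 to 3.34 CPM in fed libraries, did not overlap either. The 3 tested T cell markers also had positive log2 fold changes on the TMM scale of the host genes, Cd3g at 0.51, Cd3e at 1.86 and Lef1 at 1.16, without a call. The part of these cells in the host gene values was not tested.

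**Figure D5:**
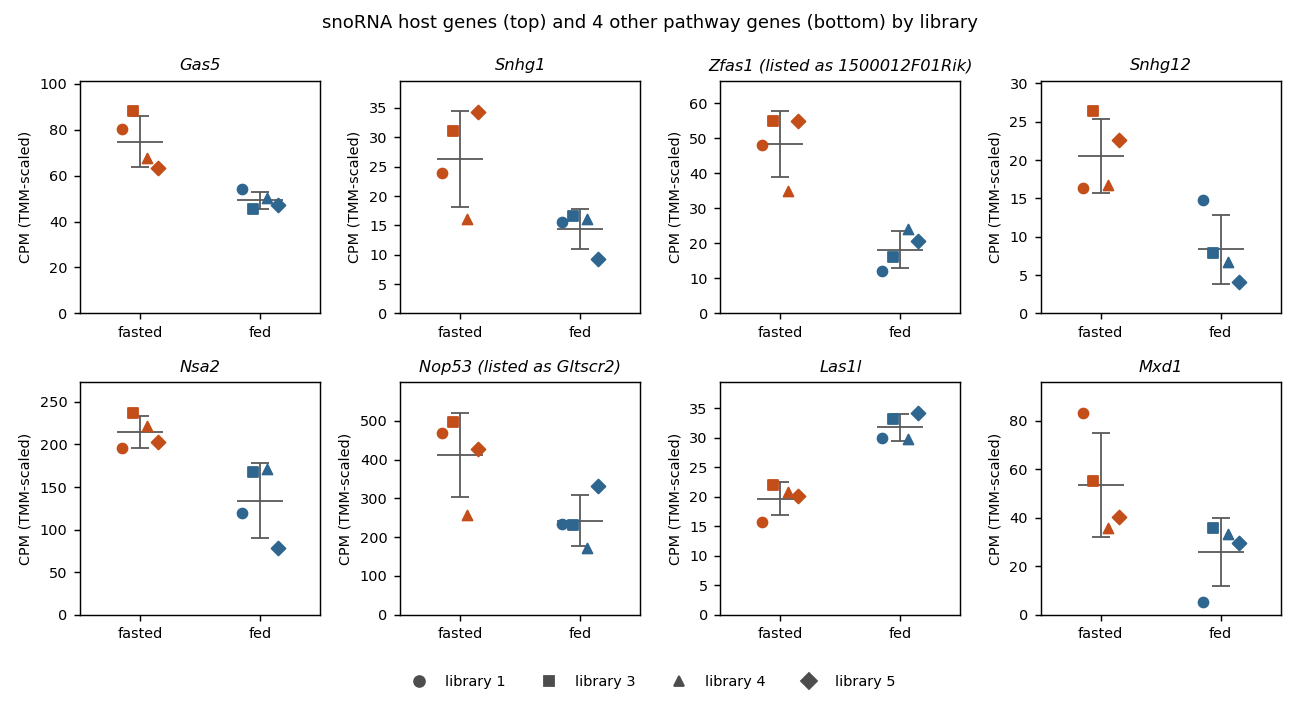
Levels of 4 snoRNA host genes (top row) and 4 other pathway genes (bottom row) in CPM over TMM-scaled library sizes, in fasted (orange, left) and fed (blue, right) libraries, with the marker shape giving the library number and bars the mean ± SD (n = 4 each). Gas5, Zfas1, Snhg12, Nsa2 and Mxd1 lie higher and Las1l lower in fasted libraries without overlap, and the other 2 genes overlap.

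The promoter windows of Las1l and Snhg12 are shown as those of pathway genes whose groups did not overlap in opposite directions, on GRCm38.p6 from RefSeq, at chrX:95956904-95957153 on the minus strand and chr4:132308428-132308677 on the plus strand, with capitals as for Nop56.
Las1l: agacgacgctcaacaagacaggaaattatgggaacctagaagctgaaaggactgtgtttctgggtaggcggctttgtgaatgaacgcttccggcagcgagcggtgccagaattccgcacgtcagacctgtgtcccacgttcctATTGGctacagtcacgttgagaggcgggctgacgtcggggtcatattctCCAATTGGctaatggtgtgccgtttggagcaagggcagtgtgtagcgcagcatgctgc
Snhg12: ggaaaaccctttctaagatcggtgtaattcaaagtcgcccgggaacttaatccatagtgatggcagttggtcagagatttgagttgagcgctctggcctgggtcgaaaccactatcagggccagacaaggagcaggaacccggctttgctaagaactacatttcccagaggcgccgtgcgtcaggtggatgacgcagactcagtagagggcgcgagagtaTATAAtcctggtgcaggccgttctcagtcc
The Las1l window holds 3 CCAAT matches that begin 107, 58 and 55 bases before the RefSeq start. The last 2 overlap each other on opposite strands. On the minus strand the GENCODE gene of Las1l starts at 95956962, inside the window, and these last 2 matches lie within that gene. The Snhg12 window holds TATAA once, 30 bases before the RefSeq start. The GENCODE start of Snhg12, 132308623, also lies inside its window, and this match falls within the GENCODE gene. Neither holds CACGTG.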

How the data were processed

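RNA of pancreatic islet ILC2 was counted in 4 fasted and 4 fed libraries. The authors deposited raw integer counts for each gene, with no normalization. The submitters' processing notes name STAR, edgeR and mm10 without versions. The sources used here do not say whether reads or molecular identifiers were counted. Per the labels, RNA was extracted with Trizol. Each of the 4 sequencing files is labelled with both treatments, so treatment was read from column names, and 2 further columns were not used. Left out were 11 ERCC rows with 20 counts. No pair of libraries of 1 group was a duplicate within counting noise, since chi-square divided by genes was at least 13.6.

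From the counts, edgeR 4.0.16 in R 4.3.3 kept 7700 of 15835 genes (filterByExpr), scaled library sizes with TMM factors from 0.54 to 2.11 and compared fasted with fed by the robust quasi-likelihood test with no covariates. P-values are two-sided, Benjamini-Hochberg adjusted over all tested genes at a threshold of 0.05, and the common biological coefficient of variation was 0.506. Correlations used log2 CPM with a prior count of 2. The test was tested on simulated data. Named are every member, the 3 most abundant tested genes of each list, those whose groups do not overlap, and the 5 genes most like Rn45s and Nop56; some items this takes are not reported here. The members and lists were chosen with earlier results of these data known, and 1 listed symbol had no row; 3 snoRNA host genes were matched by older symbols that RefSeq gives, after their values had been seen. Coordinates come from GENCODE vM21 on mm10 and promoter windows from RefSeq on GRCm38.p6.

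Alternatives were other scaling factors and filters, DESeq2 1.42.0, limma-voom (limma 3.58.1), a replicate block, an acinar covariate, acinar genes or Rn45s left out, and libraries left out. Deviations of same-number libraries from their group means correlated at 0.23, 0.14, 0.50 and 0.13 for numbers 1, 3, 4 and 5, each over 0.1. The numbers were treated as pairs only in the replicate block and in the same-number ratios. The main test did not pair them. The pairing rests on column names and these values, and unlike numbers reached 0.215, above the values for numbers 3 and 5.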

Additional observations from a re-analysis of the deposited data

Results flagged for a closer look

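In 3 of the 76 groups of 4 libraries examined, 1 library lay far from the others, where chance marks about 1 in 20 groups. Ubtf stood at 22.3 CPM in fasted library 4, with the nearest fasted library at 13.7 CPM. Exosc2 stood at 10.3 CPM in fasted library 4, with the nearest fasted library at 4.44 CPM. Snhg1 stood at 9.25 CPM in fed library 5, the lowest of its group, with the nearest fed library at 15.6 CPM.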

How the results depend on the processing

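With edgeR 0 genes were called in either direction, and 338 had an unadjusted p under 0.05. DESeq2 called 12 higher and 5 lower genes, the host gene Zfas1, listed as 1500012F01Rik, among the higher ones (1.37 ± 0.33). Library totals gave 1 lower gene (Chac1, named after its values were seen), and no filter gave 1 lower gene that was no member or listed pathway gene. The other alternatives gave 0, including each library left out. The count at an unadjusted p under 0.05 was 729 with limma-voom, 561 without fasted library 4, 535 with the replicate block, 229 on library totals and 919 of 15661 genes without a filter. The replicate block changed no call, and Rn45s was -1.66 ± 0.45 in it. With 1 library left out Rn45s lay between -1.90 (fasted library 4 out) and -1.38 (fed library 3 out), and otherwise between -1.87 with limma-voom and -1.20 on library totals.

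Of 780 recomputed log2 fold changes of 39 genes, 736 kept their sign. Library totals move all genes together (median 0.51), and there Myc was at 0.18, Nhp2l1 0.48, Ruvbl2 0.42, Nhp2 0.39, Tcof1 0.55, Rrp1 0.47, Pop5 0.58, Rpp21 0.26, Max 0.48, Mlx 0.17, mt-Rnr1 0.15 and mt-Rnr2 0.026. For the other sign changes the cause was not tested. Upper-quartile factors gave Pop5 0.011, and limma-voom gave Ubtf -0.089, Nhp2 0.0052 and Pop5 0.058. With the acinar covariate Fbl was at -0.19, Myc 0.30 and Nhp2 0.12, and without fasted libraries 1 and 3 they were at -0.20, 0.34 and 0.14. With each library left out, Ncl ranged from -0.075 to 0.58, Fbl from -0.14 to 0.16, Ubtf from -0.22 to 0.12, Myc from -0.34 to 0.16 and Nhp2l1 from -0.19 to 0.0069. Likewise Nhp2 ranged from -0.19 to 0.068, Tcof1 from -0.26 to 0.047, Imp4 from -0.064 to 0.25, Pop5 from -0.17 to 0.14 and Max from -0.22 to 0.049. Few counts lie behind Polr1b, Nop58 and Exosc2, with 2, 5 and 2 in fed library 5.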
